A study of Mus musculus with 2 samples.

Results

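The genes described here encode the vacuolar proton pump (V-ATPase), the cathepsin proteases and the membrane proteins Lamp1 and Lamp2, measured in whole mouse lungs shortly before birth. Members were the probe sets carrying a single gene symbol that begins with Atp6v, is Cts followed by 1 letter, or is Lamp1, Lamp2, Atp6ap1 or Atp6ap2. That rule gave 84 of the 45037 probe sets that were not array controls, standing for 42 of 18193 named genes, and it used no measured value. Total RNA of pooled whole lungs at embryonic day 18 was hybridised to 1 Affymetrix array from homozygotes of the hypomorphic Nmyc9a allele of Mycn and to 1 array from wildtype lungs. Mycn encodes N-Myc, a transcription factor needed for growth of the fetal lung epithelium. The labels name no strain, sex or pool size, and both samples share the age, the tissue and the extraction with Trizol and an RNeasy kit. With 1 array per group there is no replicate error, no p-value is given, and a difference describes these 2 arrays.

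The V-ATPase is a rotary motor. Its cytosolic V1 sector splits ATP and turns a shaft, and the shaft drives a ring in the membrane-bound V0 sector that carries protons into lysosomes, endosomes and secretory granules. Cathepsins are proteases that mostly work in that acid lumen, and Lamp1 and Lamp2 coat the inner face of the lysosomal membrane. In the lung, alveolar type 2 cells store surfactant in lamellar bodies, acidic organelles related to lysosomes in which the precursors of surfactant proteins B and C are cut to size.

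Signals are the deposited linear intensities, after a factor of 0.977 was applied to the array labelled Nmyc9a, which set the median log2 ratio of probe sets above the signal floor to 0. The floor was 49.3, the 40th percentile, and a gene counted as measured when the mean of its arrays reached it. Each gene was represented by its brightest probe set. The deposited signals had medians of 77.7 on the array labelled Nmyc9a and 66 on the wildtype array. Mycn itself read 84.8 on the array labelled Nmyc9a and 66.3 on the wildtype array by its brightest probe set (log2 ratio 0.36). Its other measured probe set read 85.4 on the array labelled Nmyc9a and 51.1 on the wildtype array (0.74). The Mycn signal therefore did not check the label, and whether its probes cover the altered sequence is not given in the sources used here. Type 2 cell markers were bright on both arrays, with Sftpc at 8966 on the array labelled Nmyc9a and 8639 on the wildtype array. All 6 measured liver markers were higher on the array labelled Nmyc9a, led by Alb at 558 there against 140 in wildtype, and the part that RNA from liver plays in the values below was not tested. Probe sets of the same gene give the one spread that can be computed here. They share the same 2 arrays, so this spread holds no variation between pools or between arrays. For the 19 genes of the group with at least 2 measured probe sets, the pooled SD of their log2 ratios was 0.30 (1.23-fold), beside 0.40 for 5671 genes of the whole array.

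Most pump, cathepsin and Lamp genes were slightly lower on the array labelled Nmyc9a, and few moved far. Of the 42 genes, 33 were measured, and 28 of these had a log2 ratio (Nmyc9a over wildtype) below 0, with a median of -0.25, beside 58.7% below 0 and a median of -0.09 among all 12600 measured genes. At least 1.5-fold apart were 2 lower genes (6.06%), Atp6v1d and Ctsk, and 2 higher genes (6.06%), Atp6v1c2 and Atp6v0d2. Of all measured genes 9.70% were at least 1.5-fold lower and 6.33% higher, so both counts lay near or under the background. Without the scaling step 1 gene was lower and 2 were higher. In whole-lung RNA, fewer cells of a type and less RNA per cell cannot be told apart.

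The small common shift has to be read beside the signal. Across the array, bright genes had lower ratios than dim ones, and these genes were bright: 21 of the 33 lay in the brightest of 4 equal classes of mean signal, from 380 upward. In that class 20 of the 21 had a ratio below 0 (95.2%), with a median of -0.29, while 73.0% of all 3150 genes in it were below 0, with a median of -0.20. None of the 21 was 1.5-fold apart, against 11.5% of the class lower and 1.94% higher. After a loess fit that removes the trend with signal, the median of the 33 genes was -0.09, beside -0.06 for all measured genes, and 22 were below 0, beside 56.3% of all measured genes.

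**Figure D1:**
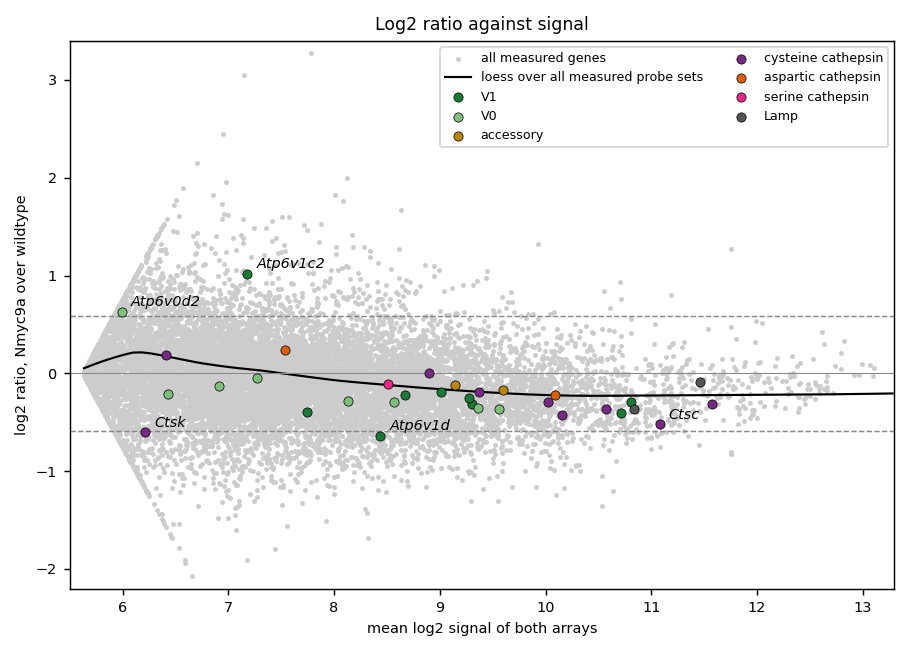
Each point is a measured gene, with the mean log2 signal of both arrays on the x axis and the log2 ratio of Nmyc9a over wildtype on the y axis; dashed lines mark 1.5-fold, and the slanted left edge is made by the signal floor. The coloured pump, cathepsin and Lamp genes mostly follow or lie just below the loess curve, with Atp6v1c2 at 1.02 far above it and Atp6v1d at -0.64 and Ctsk at -0.60 below.

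The promoters of these genes were searched for CACGTG, the E-box letters that Myc proteins with their partner Max and also the lysosomal regulators of the TFEB family bind. RefSeq windows on GRCm38.p6, each of 300 bases (250 before the annotated start and 50 after it), were held for 32 of the 42 genes as 34 windows. CACGTG, which reads the same on both strands, stood in 9 of the 34 windows (26.5%), against 7.15% of all 32851 windows and 9.28% of the 13000 windows of measured genes. The longer TCACGTGA, which contains CACGTG and forms the core of the CLEAR element named for lysosomal genes, stood in 5 windows (14.7%), against 0.974% of all windows and 1.72% of those of measured genes. The GC box GGGCGG, searched with its reverse complement, was found in 55.9% of the windows and in 59.5% of those of measured genes. A match in these letters shows no binding. The genes with TCACGTGA are shown because they come from several arms of the group: the V1 catalytic subunit, 2 V0 subunits, a serine and an aspartic cathepsin. Lamp1 is shown for its 4 E-boxes, and Atp6v1d and Atp6v1c2 because they are the pump genes furthest below and above 0 and have no CACGTG in their windows. Each line runs from 160 bases before the start to 20 after it on the strand of the gene, and capitals mark CACGTG, or TCACGTGA where it is complete.
Atp6v1a, chr16:44139240-44139419, minus strand: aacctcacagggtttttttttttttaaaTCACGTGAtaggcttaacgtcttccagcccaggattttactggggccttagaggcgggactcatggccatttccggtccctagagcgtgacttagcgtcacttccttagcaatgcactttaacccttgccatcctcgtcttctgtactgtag
Atp6v0d1, chr8:105566045-105566224, minus strand: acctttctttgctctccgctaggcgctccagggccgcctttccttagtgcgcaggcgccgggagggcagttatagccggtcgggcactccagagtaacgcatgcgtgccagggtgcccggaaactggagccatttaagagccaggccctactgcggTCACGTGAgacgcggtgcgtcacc
Atp6v0e, chr17:26676236-26676415, plus strand: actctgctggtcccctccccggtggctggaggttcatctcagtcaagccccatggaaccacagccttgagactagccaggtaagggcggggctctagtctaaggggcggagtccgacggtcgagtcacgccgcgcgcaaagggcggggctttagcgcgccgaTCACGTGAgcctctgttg
Ctsa, chr2:164833613-164833792, plus strand: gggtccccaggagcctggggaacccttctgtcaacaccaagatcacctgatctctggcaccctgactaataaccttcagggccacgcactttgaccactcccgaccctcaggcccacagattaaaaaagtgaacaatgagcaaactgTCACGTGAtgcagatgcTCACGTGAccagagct
Ctsd, chr7:142387808-142387987, minus strand: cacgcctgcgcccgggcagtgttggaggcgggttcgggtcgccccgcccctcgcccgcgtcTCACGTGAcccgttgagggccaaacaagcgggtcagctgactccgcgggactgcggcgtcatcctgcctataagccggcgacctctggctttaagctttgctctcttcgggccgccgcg
Lamp1, chr8:13159001-13159180, plus strand: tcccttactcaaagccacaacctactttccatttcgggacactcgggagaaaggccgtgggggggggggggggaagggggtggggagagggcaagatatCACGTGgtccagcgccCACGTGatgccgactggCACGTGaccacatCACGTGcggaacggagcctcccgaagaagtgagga
Atp6v1d, chr12:78861619-78861798, minus strand: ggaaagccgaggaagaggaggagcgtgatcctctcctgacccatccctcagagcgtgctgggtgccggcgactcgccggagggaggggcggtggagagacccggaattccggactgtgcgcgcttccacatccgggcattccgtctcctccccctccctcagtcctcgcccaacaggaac
Atp6v1c2, chr12:17324711-17324890, minus strand: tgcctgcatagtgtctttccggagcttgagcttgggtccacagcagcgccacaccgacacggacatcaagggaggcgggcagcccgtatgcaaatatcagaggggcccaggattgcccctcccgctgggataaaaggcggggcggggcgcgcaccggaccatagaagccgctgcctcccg

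The 5 genes with TCACGTGA had log2 ratios from -0.36 to -0.11. The 9 measured genes with any CACGTG had a median of -0.29 and a range of -0.43 to 0.19, and the 15 measured genes whose windows lacked it had a median of -0.25 and a range of -0.64 to 1.02. The range of the genes with the motif lay inside that of the genes without it. Over the whole array the 1132 measured genes with CACGTG in a window had a median of -0.11 and the 9003 without it a median of -0.09.

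The V1 sector holds the catalytic head of the pump. Of its 12 genes 9 were measured, and 8 of the 9 had lower signals on the array labelled Nmyc9a, with a median log2 ratio of -0.30. Atp6v1d, which encodes the central shaft that turns inside the head, stood lowest: 278 on the array labelled Nmyc9a and 433 on the wildtype array, 1.56-fold lower. Its 3 probe sets had ratios of -0.64, -0.71 and -0.90, so the difference was seen by every probe set, and after loess the first of them stood at -0.53, just inside 1.5-fold. The other shaft subunit on the array, Atp6v1f, read 569 on the array labelled Nmyc9a and 676 on the wildtype array, a log2 ratio of -0.25, close to the class of bright genes.

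The catalytic A subunit gene Atp6v1a, which binds and splits ATP, read 1623 on the array labelled Nmyc9a and 1993 on the wildtype array, a log2 ratio of -0.30. A second probe set of it stood at -0.49. Atp6v1b2, the B subunit of most tissues, read 484 on the array labelled Nmyc9a and 550 on the wildtype array (-0.19). Of the outer stalks that hold the head still, Atp6v1e1 read 568 on the array labelled Nmyc9a and 707 on the wildtype array (-0.32), and a dimmer probe set of it read 173 on both. Atp6v1g1, the other outer stalk subunit, read 1462 on the array labelled Nmyc9a and 1930 on the wildtype array, and both of its measured probe sets gave -0.40. By the brightest probe sets these differences were near the SD between probe sets of 0.30 and all were below 0. That SD does not measure the error between arrays.

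Atp6v1h, whose product couples ATP splitting to proton transport, divided by probe set. The brightest read 186 on the array labelled Nmyc9a and 245 on the wildtype array (log2 ratio -0.40), while a second read 158 on the array labelled Nmyc9a and 89.9 on the wildtype array (0.82). The direction of this gene is therefore not settled by these arrays, and the median of its measured probe sets was 0.21.

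The C subunit, which joins V1 to V0, has 2 isoform genes that went opposite ways. Atp6v1c1, the form found in most cells, read 376 on the array labelled Nmyc9a and 440 on the wildtype array, with ratios of -0.23 to -0.30 over 3 probe sets. Atp6v1c2, a form known from mouse lung and kidney and located in lung on the lamellar bodies of type 2 cells, read 206 on the array labelled Nmyc9a and 102 on the wildtype array. It was 2.02-fold higher (log2 ratio 1.02), above 98.7% of measured genes, and was the only one of the 33 genes to pass 2-fold, which 1.29% of measured genes did upward and 1.38% downward. The value rests on 1 probe set, whose name ends in _a_at, so no other probe set of the gene checks it. Of the type 2 cell markers on the array all 11 were measured, none 1.5-fold higher and 1, Il33, lower, with a median of 0.05 and summed signals of 36685 on the array labelled Nmyc9a and 35354 on the wildtype array. Sftpb among them read 5202 on the array labelled Nmyc9a and 5203 on the wildtype array. After loess the median of these markers was 0.26, with 10 above 0 and 1 below, beside 0.97 for Atp6v1c2.

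Atp6v1c2 and Atp6v1d both lie on chromosome 12, as Mycn does. Between Mycn and Atp6v1c2 the annotation places 13 protein-coding genes, of which 11 were measured. None of the 11 was 1.5-fold higher and 4 were 1.5-fold lower, beside 6.33% higher and 9.70% lower among all measured genes. Their median was -0.39 and their highest value 0.51. Between Mycn and Atp6v1d lie 292 protein-coding genes, a stretch that includes Atp6v1c2 and the 13 genes before it. The 178 measured among them had a median of -0.10, with 18 at least 1.5-fold lower and 12 higher. The highest value among them, 1.02, equals that of Atp6v1c2. Genes next to Atp6v1c2 on its far side were not looked at separately, and a regional cause was not tested. Whether the strain origin of the chromosome around Mycn differed between the pools is not stated in the labels.

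The remaining V1 isoforms are limited to a few tissues and were below the floor on both arrays. Atp6v1b1, the B subunit of acid-secreting kidney cells, read 8.4 on the array labelled Nmyc9a and 8 on the wildtype array. Atp6v1e2, a testis form, read 38.3 on the array labelled Nmyc9a and 40 on the wildtype array, and Atp6v1g2, a neuronal form, read 35 on the array labelled Nmyc9a and 37.9 on the wildtype array. These signals show only that the transcripts were not measurable here.

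**Figure D2:**
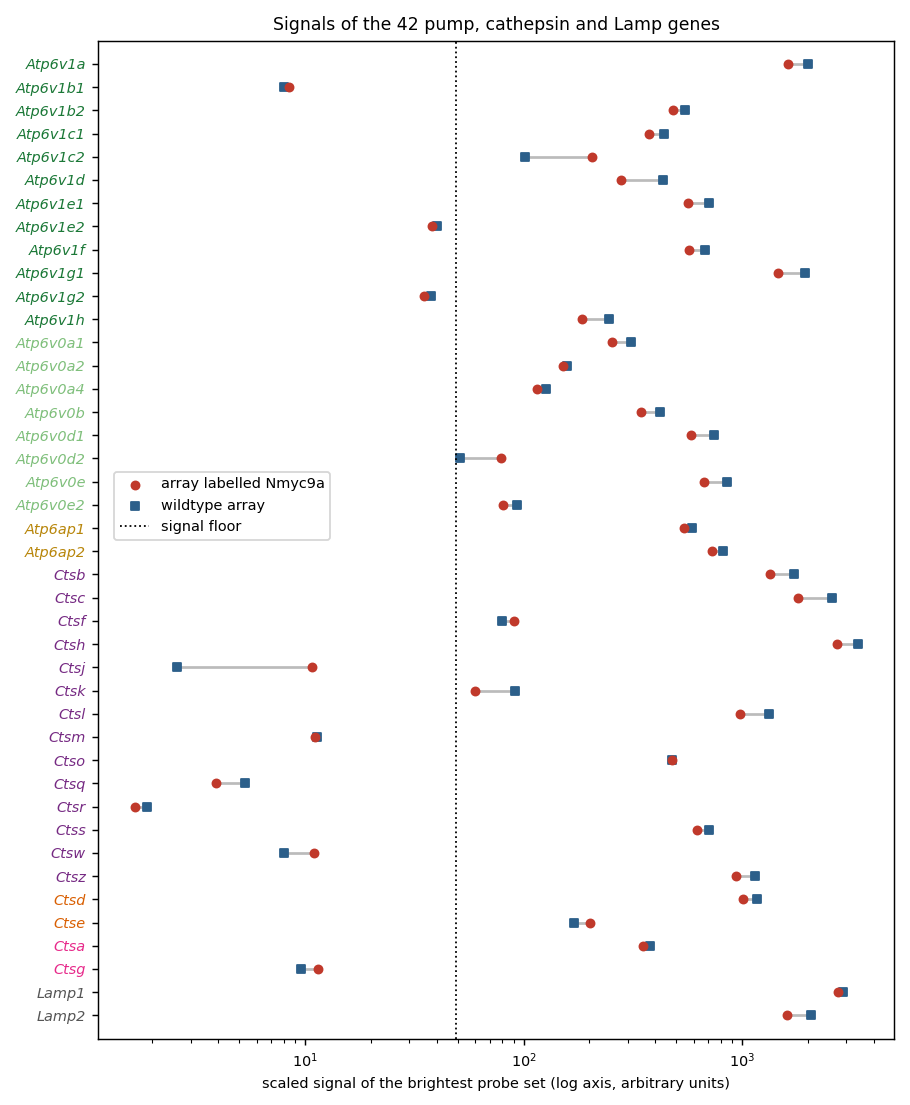
The scaled signal of the brightest probe set of each of the 42 genes is drawn on a log axis, red circles for the array labelled Nmyc9a and blue squares for the wildtype array, with gene names coloured by role from V1 at the top to Lamp at the bottom. Most red circles lie a short way left of their squares above the dotted floor at 49.3; Atp6v1c2 and Atp6v0d2 are turned the other way, and 9 genes lie below the floor on both arrays.

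The V0 sector carries the protons. All 8 of its genes on the array were measured, 7 with a ratio below 0, and the median was -0.25. Atp6v0d1, which links the shaft to the ring in most cells, read 582 on the array labelled Nmyc9a and 745 on the wildtype array (log2 ratio -0.36). Atp6v0b, a proteolipid of the ring, read 343 on the array labelled Nmyc9a and 420 on the wildtype array, with 3 probe sets between -0.40 and -0.26. Atp6v0e, a small membrane subunit, read 666 on the array labelled Nmyc9a and 856 on the wildtype array (-0.36), and its relative Atp6v0e2 read 80.2 on the array labelled Nmyc9a and 92.9 on the wildtype array (-0.21). These genes stayed within 1.5-fold, and 2 of them carry the TCACGTGA shown above.

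The a subunits form the channel for protons and set the organelle in which the pump works. Atp6v0a1 read 255 on the array labelled Nmyc9a and 310 on the wildtype array by its brightest probe set (-0.28), but its 3 dimmer probe sets stood at 0.07, 0.23 and 0.50. Atp6v0a2, a form of Golgi and endosomes, read 152 on the array labelled Nmyc9a and 158 on the wildtype array (-0.05), with other probe sets at -0.36 and 0.35. Atp6v0a4, a kidney form, read 115 on the array labelled Nmyc9a and 126 on the wildtype array (-0.13). For Atp6v0a1 and Atp6v0a2 the disagreement between probe sets was larger than the difference between arrays.

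Atp6v0d2, the d isoform known from osteoclasts, kidney and macrophages, was higher where Atp6v0d1 was lower. It read 79.2 on the array labelled Nmyc9a and 51.1 on the wildtype array, 1.55-fold higher (log2 ratio 0.63). The wildtype signal lay just above the floor, and a second probe set, at 49.7 on the array labelled Nmyc9a and 40.7 on the wildtype array, had a mean below it, so this is a small difference between dim signals. Of the 7 osteoclast markers, Acp5, Calcr and Ocstamp were below the floor on both arrays and 4 were measured, none of them 1.5-fold apart. Their log2 ratios ran from -0.55 for Nfatc1 to 0.56 for Oscar, with a median of -0.03, and the summed signal of the 7 was 472 on the array labelled Nmyc9a and 490 on the wildtype array. Of 17 macrophage markers 14 were measured, 9 of them below 0, with 3 at least 1.5-fold lower, 2 higher and a median of -0.19. Their summed signal was 7498 on the array labelled Nmyc9a and 6933 on the wildtype array. Most of it came from Lyz2, and the other 16 summed to 2979 on the array labelled Nmyc9a and 3306 on the wildtype array. The part of either cell type in the Atp6v0d2 value was not tested.

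Counting the pump as a whole, 16 genes are of wide use and 6 are tissue-limited isoforms. All 16 of the wide-use genes were measured and had ratios below 0, from -0.64 to -0.05, with a median of -0.29. Of all measured genes 58.7% were below 0, and in the brightest class 73.0%, with a median of -0.20. Among the 16, Atp6v0a1, Atp6v0a2 and Atp6v1h had probe sets on both sides of 0. After loess 14 of the 16 were below 0 and the median was -0.15, and quantile normalization or the median of the probe sets of each gene also left 14 below 0. Of the 6 tissue-limited forms 3 were measured, Atp6v1c2 and Atp6v0d2 higher and Atp6v0a4 at -0.13. Foxi1, the regulator of acid-secreting epithelial cells that use such isoforms, read 12.6 on the array labelled Nmyc9a and 13.8 on the wildtype array, below the floor on both. Of the 7 markers of ionocytes and intercalated cells, the acid-secreting list that holds Foxi1, 3 were measured: Kit, a growth factor receptor also found on other cells, at 639 on the array labelled Nmyc9a and 411 on the wildtype array (1.56-fold higher), Ascl3 at 0.31 and Cftr at 0.00. The 7 summed to 1031 on the array labelled Nmyc9a and 775 on the wildtype array, and most of both sums came from Kit. The part of such cells in the isoform values was not tested. The accessory proteins that help the pump assemble and travel lay near 0: Atp6ap1 at 542 on the array labelled Nmyc9a and 590 on the wildtype array (-0.12), and Atp6ap2, the prorenin receptor, at 731 on the array labelled Nmyc9a and 820 on the wildtype array (-0.17), although its 2 other probe sets gave -0.46 and -0.33.

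Among cathepsins, 12 of 18 genes were measured, 9 of them with a ratio below 0, and the median was -0.26. After loess the cathepsin median was -0.03, with 6 below 0 and 6 above. The cysteine proteases make up most of the family. Ctsh, the amino-terminal protease that type 2 cells use to mature surfactant proteins B and C, read 2727 on the array labelled Nmyc9a and 3399 on the wildtype array, with probe sets at -0.32 and -0.12. Its partner in that task, the aspartic protease gene Napsa, stood at -0.22, from 1828 on the array labelled Nmyc9a and 2130 on the wildtype array. Both values lay close to the median of bright genes.

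Ctsc, which activates the granule proteases of neutrophils and mast cells, had the lowest ratio of the cathepsins in the brightest signal class. It read 1804 on the array labelled Nmyc9a and 2592 on the wildtype array, a log2 ratio of -0.52 that is 1.44-fold, and its other probe sets stood at -0.14 and, near the floor, at -0.70. Neutrophil markers lay lower as well, with a median of -0.39 over 10 measured of 12 and summed signals of 3267 on the array labelled Nmyc9a and 4674 on the wildtype array. Among them S100a9 read 528 on the array labelled Nmyc9a and 999 on the wildtype array, whereas Csf3r was at least 3.41-fold higher. The part of such cells in the Ctsc value was not tested. Ctsg, the serine protease of neutrophil granules, read 11.5 on the array labelled Nmyc9a and 9.6 on the wildtype array, below the floor on both.

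The general lysosomal endopeptidase Ctsl read 981 on the array labelled Nmyc9a and 1322 on the wildtype array (log2 ratio -0.43). Ctsb, which trims dipeptides from protein ends, read 1340 on the array labelled Nmyc9a and 1729 on the wildtype array by its brightest probe set (-0.37), and 1198 on the array labelled Nmyc9a and 1535 on the wildtype array by the next (-0.36). Its 3 dim probe sets gave 0.03, 0.32 and 0.83. The bright probe sets thus gave nearly the same ratio, and the dim ones, with signals of 77.7 to 138, lay on the other side of 0. The median over the 5 was 0.03.

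Ctsz, a carboxypeptidase, read 940 on the array labelled Nmyc9a and 1151 on the wildtype array, with 3 probe sets between -0.41 and -0.29. Ctss, which cuts the invariant chain during antigen presentation in macrophages and dendritic cells, read 621 on the array labelled Nmyc9a and 708 on the wildtype array (-0.19). The macrophage receptor gene Csf1r was close to it at -0.27, while the complement genes C1qa and C1qb were at -0.81 and -0.92 and Mpeg1 at 0.87. Ctss thus moved less than several macrophage markers in either direction.

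Ctsk, the collagen-degrading cathepsin of osteoclasts, also made by fibroblasts, read 60.2 on the array labelled Nmyc9a and 91.2 on the wildtype array, 1.51-fold lower (log2 ratio -0.60). It rests on 1 dim probe set, and its ratio ranged from -0.81 to -0.49 over 9 settings including the one reported. Ctso and Ctsf, widely expressed members, were not lower: Ctso read 480 on the array labelled Nmyc9a and 477 on the wildtype array (0.01), and Ctsf read 90.7 on the array labelled Nmyc9a and 79.4 on the wildtype array (0.19).

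Cathepsins of other tissues gave no measurable signal. Ctsj, Ctsm, Ctsq and Ctsr belong to the placental cluster that rodents carry on chromosome 13, and they read from 1.66 to 11.1 on the array labelled Nmyc9a and from 1.9 to 11.3 on the wildtype array. Ctsw, of cytotoxic lymphocytes, read 11 on the array labelled Nmyc9a and 8 on the wildtype array. Signals this far below the floor carry no order.

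The aspartic and serine cathepsins differed little between arrays. Ctsd, the main aspartic protease of lysosomes, read 1008 on the array labelled Nmyc9a and 1175 on the wildtype array (log2 ratio -0.22), which loess brought to 0.00. Ctse, an endosomal aspartic protease of epithelial and immune cells, was on the higher side in both probe sets: 202 on the array labelled Nmyc9a and 170 on the wildtype array (0.24), and 0.42 by the other. Ctsa, a carboxypeptidase that shields the lysosomal enzymes Neu1 and Glb1, read 351 on the array labelled Nmyc9a and 378 on the wildtype array (-0.11).

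Lamp1 read 2734 on the array labelled Nmyc9a and 2899 on the wildtype array (log2 ratio -0.08), and loess moved it to 0.14. Lamp2, which also serves autophagy and exists in spliced forms with different membrane anchors, read 1609 on the array labelled Nmyc9a and 2075 on the wildtype array (-0.37). Its other probe sets stood at -0.60, -0.27 and 0.12, a spread that was larger than the difference itself. Which spliced form each probe set reads was not determined here.

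**Figure D3:**
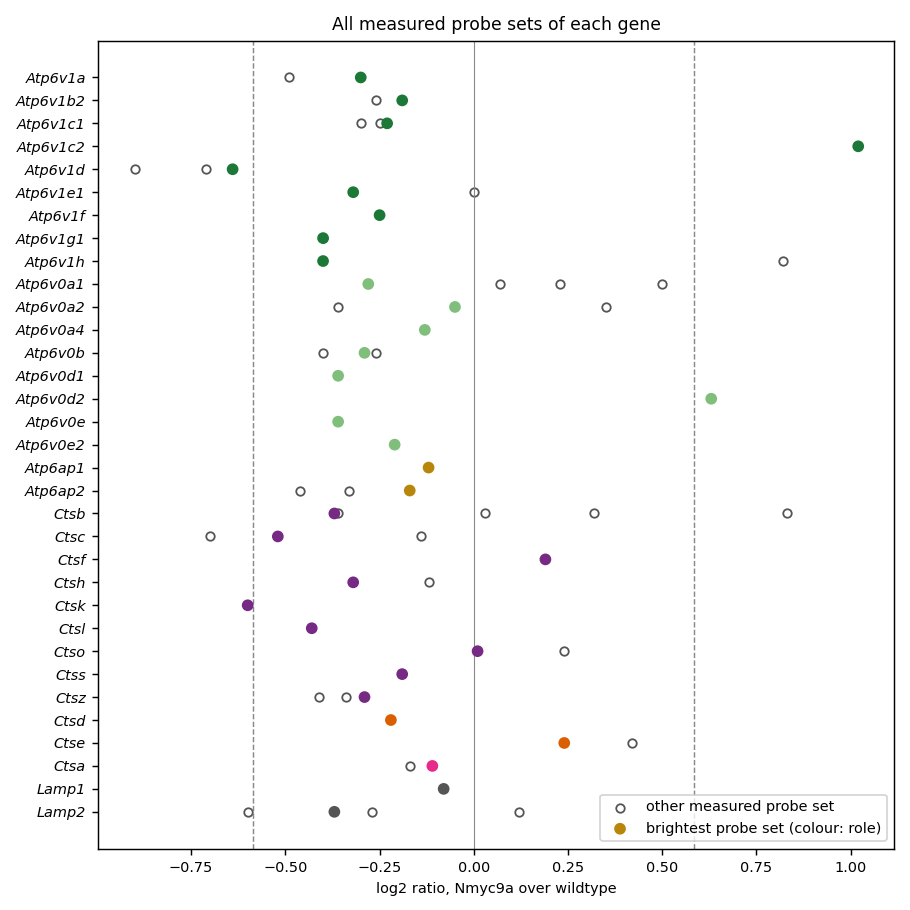
Every measured probe set is a circle at its log2 ratio of Nmyc9a over wildtype, 1 row per gene, filled and coloured by role for the brightest probe set and open for the others; dashed lines mark 1.5-fold. The 3 circles of Atp6v1d all lie at or left of -0.64, while Ctsb, Atp6v0a1, Atp6v0a2, Atp6v1h and Lamp2 have circles on both sides of 0.

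Over single probe sets, 66 of the 84 were measured. Of these 6 were at least 1.5-fold lower and 4 higher, beside 9.24% lower and 9.32% higher among all named probe sets. The lower ones were the 3 of Atp6v1d, 1 each of Ctsc, Ctsk and Lamp2, and the higher ones were those of Atp6v1c2, Atp6v0d2, Atp6v1h and Ctsb already described. Of the 19 genes with several measured probe sets, 12 were lower in all of them, 2 were higher in all (Ctse and Ctso) and 5 were mixed. Among the 12, Atp6v1e1 had a probe set at -0.00, which shows no direction. Brightness ran through this pattern: of the 35 member probe sets in the brightest of 4 classes 33 were below 0, with a median of -0.32, while of the 14 in the second class from the dim end 9 were above 0, with a median of 0.27. All named probe sets of the same classes had medians of -0.19 and 0.02.

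Lysosomal hydrolases and membrane genes, from lists set beside the members, had medians nearer 0 before the trend with signal was removed. Of 30 measured hydrolases 17 lay below 0, with a median log2 ratio of -0.05, and Glb1, the lysosomal beta-galactosidase, was the 1 gene at least 1.5-fold lower, at 104 on the array labelled Nmyc9a and 172 on the wildtype array. Ppt1 stood next to it at -0.48, while Sgsh, a sulfatase of heparan sulfate, stood highest at 0.34 and Neu1 at 0.30. Of 19 measured genes for lysosomal membrane proteins, channels and activators 8 lay below 0, with a median of 0.08. Among them Laptm5, a lysosomal protein of blood cells, was 1.55-fold higher at 320 on the array labelled Nmyc9a and 207 on the wildtype array, the cystine exporter gene Ctns was at 0.44, and Lamtor1 and Laptm4b were at -0.31 and -0.30. After loess the medians were 0.04 for hydrolases, on the other side of 0, and 0.21 for membrane genes. Those of all measured members, the wide-use pump genes and the cathepsins were then -0.09, -0.15 and -0.03. Membrane genes thus lay further from 0 than the members after loess. These lists were not tested against each other.

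Before the trend with signal was removed, a list of pump subunit, assembly and partner genes outside the naming rule was close to the members. All 10 genes were measured, 7 were below 0, none was 1.5-fold apart, and the median was -0.16. After loess the median of this list was -0.21, again with 7 below 0. The measured members then had a median of -0.09 and the wide-use pump genes -0.15. The list also held Slc35b2, a transporter gene that is not part of the pump, at -0.35. Tcirg1, the a subunit of osteoclast and late lysosomal pumps, read 123 on the array labelled Nmyc9a and 139 on the wildtype array (-0.17). Ncoa7, which interacts with the pump, was lowest at -0.39, and Tmem199, an assembly factor, was highest at 0.06.

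Inhibitors of cathepsins were below 0 in all 6 measured genes of 10 on the array, with a median of -0.55. Of all measured genes 58.7% were below 0, and of those in the brightest class 73.0%. At least 1.5-fold lower were 2 of the 6, beside 9.70% of all measured genes. Stfa3, a stefin of the neutrophil lineage, read 127 on the array labelled Nmyc9a and 291 on the wildtype array (2.30-fold lower). The neutrophil markers given above were mixed, with 7 of 10 measured below 0 and 3 above. The part of neutrophils in the Stfa3 value was not tested. Cstb, the cytosolic stefin B, read 1188 on the array labelled Nmyc9a and 1894 on the wildtype array (1.59-fold lower). Cst3, the secreted inhibitor cystatin C, was at -0.55, and Ctla2a was nearest 0 at -0.17. After loess all 6 were still below 0, with a median of -0.42.

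The list for tagging and sorting enzymes to lysosomes, which also held the sulfatase activator Sumf1, had 4 genes at least 1.5-fold lower among 12 and none higher. Of all measured genes 9.70% were at least 1.5-fold lower and 6.33% higher. The median of the list was -0.21. After loess the median was -0.03, with 6 genes below 0 and 6 above, and with a floor at the 60th percentile it was 0.00 over 10 genes. Nagpa, which uncovers the mannose 6-phosphate tag, was at least 1.90-fold lower, with 48.6 on the array labelled Nmyc9a, under the floor, and 93.9 on the wildtype array. The sorting adaptor gene Gga2 read 171 on the array labelled Nmyc9a and 314 on the wildtype array (1.83-fold lower), the adaptor subunit Ap1g1 was 1.54-fold lower, and Sumf1 1.51-fold lower. After loess Ap1g1 stood at -0.51, inside 1.5-fold, while Nagpa, Gga2 and Sumf1 stood at -1.14, -0.82 and -0.59. The sorting adaptors Gga3 and Gga1 stood highest, at 0.32 and 0.21, and so the list was spread widely to both sides.

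The TFEB family and the nutrient-sensing genes around it showed little difference. Of 6 measured regulators none was 1.5-fold apart, and the median was 0.10. Tfeb read 130 on the array labelled Nmyc9a and 144 on the wildtype array (-0.14), and Rragc, a GTPase of the lysosomal surface, was lowest at -0.30. Mitf was at 0.26 and Flcn at 0.17. The genes of the lamellar body itself had a median of 0.03 over 10 measured, with Sftpd, a secreted collectin, 1.77-fold lower and Rab27a, a GTPase of secretory granules, at 0.42. After loess the lamellar body median was 0.24, with 8 genes above 0 and 2 below.

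**Figure D4:**
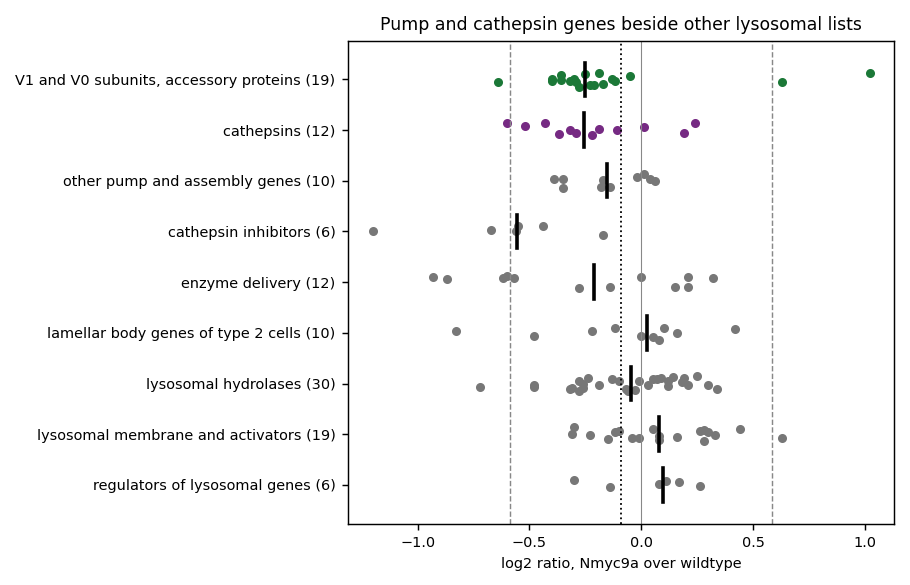
Each dot is a measured gene at its log2 ratio of Nmyc9a over wildtype, 1 row per list with the number of genes in brackets, scattered vertically only for sight; thick bars are medians, the dotted line is the median of all measured genes at -0.09, and dashed lines mark 1.5-fold. Pump genes and cathepsins have bars at -0.25 and -0.26, inhibitors at -0.55, and hydrolases and lysosomal membrane genes at -0.05 and 0.08.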

How the data were processed

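Biotin-labelled total RNA of pooled whole lungs was hybridised to Affymetrix arrays, 1 per group, per the labels. The deposited table holds 1 linear intensity for each of 45101 probe sets and array. How the authors scaled them is not given in the sources used here; their means without the lowest and highest 2% are 150 on both arrays. The 64 control probe sets were left out. Gene names came from the annotation of the platform, with symbols updated through Entrez identifiers to RefSeq on GRCm38.p6, which matched 34754 of 34945 with 1 symbol. Log2 ratios were taken after scaling and after raising signals below the floor to it (Python 3.11.15, pandas 2.3.3, loess from statsmodels 0.14.6 with a span of 0.3). No test was possible with 1 array per group, so genes were counted past 1.5-fold, and the number of arrays limits the precision. The counting was tested on simulated data. Every member gene could be named. From other lists, genes at least 1.5-fold apart and the highest and lowest pair could be named. Also named were Tcirg1, Slc35b2, Tfeb, Napsa, Cst3 and Mycn and the markers, which were chosen after values were seen. Members, lists and settings were chosen with earlier results of these data known. Alternatives changed the scaling, the floor, the probe set used and the size rule.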

Additional observations from a re-analysis of the deposited data

How the results depend on the processing

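The median log2 ratio of the measured pump, cathepsin and Lamp genes stayed below 0 under all 10 alternatives that give one, from -0.27 to -0.09. From 20 genes of 25 measured to 31 of 35 were below 0, and after loess 22 of 33. The median of all measured genes was also below 0 under these alternatives, except centring, which sets it to 0.00. It lay close to the members under quantile normalization (-0.10 beside -0.13) and loess (-0.06 beside -0.09). The counts past 1.5-fold rest on few genes near the threshold. The 2 higher genes became 1 under quantile normalization, loess, a floor at the 60th percentile, a pseudocount of 16 or the 2-fold rule (each leaving Atp6v1c2), and 1 without probe sets ending in _x_at, _s_at or _a_at (leaving Atp6v0d2, since Atp6v1c2 has no other probe set). The 2 lower genes became 3 without probe sets ending in _x_at, _s_at or _a_at (Lamp2 joined them, at -0.60), 1 with values as deposited or a pseudocount (Atp6v1d) and under quantile normalization or loess (Ctsk), and 0 with a floor at the 60th percentile, with the 2-fold rule, or when all measured genes were centred on 0, an alternative chosen after seeing the data. None of the 4 genes past 1.5-fold changed direction in any setting that gave it a value. Taking the median of probe sets put Atp6v0a1 at 0.15, Atp6v1h at 0.21 and Ctsb at 0.03, all on the other side of 0, and leaving out probe sets with those endings put Atp6v0a2 at 0.35. Of the lists set beside the members, the hydrolase median was also above 0, at 0.04, with a floor at the 60th percentile or centring on all genes. The lamellar body median ran from -0.01 at its lowest to 0.24 after loess, its highest. The cause of these moves was not tested, apart from genes that an alternative itself drops. The wildtype signal of Atp6v0d2, 51.1, lay within a few units of the floor of 49.3, which limits what can be read from it. No paired analysis was possible because each group holds 1 array.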
